A study of Mus musculus with 354 samples.

Results

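Liver RNA of mice that received no drug was compared between 10 Collaborative Cross strains classed as strong or weak responders to tolvaptan. The part described here is the set of 40 control arrays, labelled Control and called vehicle below, of 6 strong responder strains (OR5035, OR3393, OR5612, AU8048, AU8004 and OR15156; 24 arrays) and 4 weak responder strains (AU8010, AU8016, AU8027 and AU8036; 16 arrays). They are 40 of 179 vehicle arrays and of 354 arrays in all, from 45 strains. The Collaborative Cross is a panel of inbred mouse strains bred from a common set of founder strains, so animals of 1 strain are close to genetically identical and strains differ at many loci. All animals were males of about 8 to 10 weeks at dosing, acclimated for about 7 days and fasted for about 18 hours before the liver was taken, 24 hours after dosing. Each strain had 4 vehicle animals, 1 array per animal. The tolvaptan animals of the same strains (24 arrays of strong and 14 of weak strains, AU8016 having 2) carried the same strain backgrounds and differed in the drug. The strain is the unit of replication here, 6 against 4, and each value below is a strain mean of log2 RMA signal unless an animal is named; RMA is a summary of the probes of one probe set after background correction and quantile normalization, so a difference of 1 is a doubling of signal.

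Tolvaptan blocks the vasopressin V2 receptor, which acts mainly in the kidney, and is used to slow cyst growth in polycystic kidney disease; liver injury in some patients limits its use. Hepatocytes clear it through cytochrome P450 enzymes of the CYP3A family, and drug and bile acid export from hepatocytes runs through canalicular transporters such as ABCB11 and ABCC2. The comparison asks whether livers of strains that later differed in their transcript response already differed without the drug.

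The strains were chosen by measured values: their own change with tolvaptan, which is computed against the same vehicle arrays. As a description of that choice, a response score was computed for each strain from the genes that tolvaptan moved in the other 44 strains: the average tolvaptan-minus-vehicle change of those moving upward, less the average of those moving downward, with 50 at most in each direction. The scores of the strong strains were 0.86 in OR5035, 0.63 in OR3393, 0.60 in OR5612, 0.53 in AU8048, 0.47 in OR15156 and 0.42 in AU8004. Those of the weak strains were 0.24 in AU8036, 0.19 in AU8027, 0.14 in AU8010 and 0.14 in AU8016. The measure and threshold that chose the strains are not given in the sources used here. The classes did not overlap in this score, but they are not the ends of the panel: AU8033 (1.07) and OR5119 (0.98) scored above every strong strain and hold 3 and 1 arrays that did not resemble their labelled strain, and 13 strains scored below every weak strain. Just outside the classes, AU8052 scored 0.42, AU8049 0.28 and AU18042 0.14, and unselected strains also scored between members. The root mean square change over all genes, a size without direction, overlapped between the classes, from 0.21 to 0.28 in strong and from 0.17 to 0.26 in weak strains. Few genes passed an adjusted p of 0.05 in limma for tolvaptan against vehicle within a single strain. There were 7 in OR5035, 6 in OR3393, 6 in AU8004, 1 in AU8048, 1 in OR15156 and 0 in OR5612, against 0 in each weak strain. The unselected strain AU8049 had 763.

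**Figure D1:**
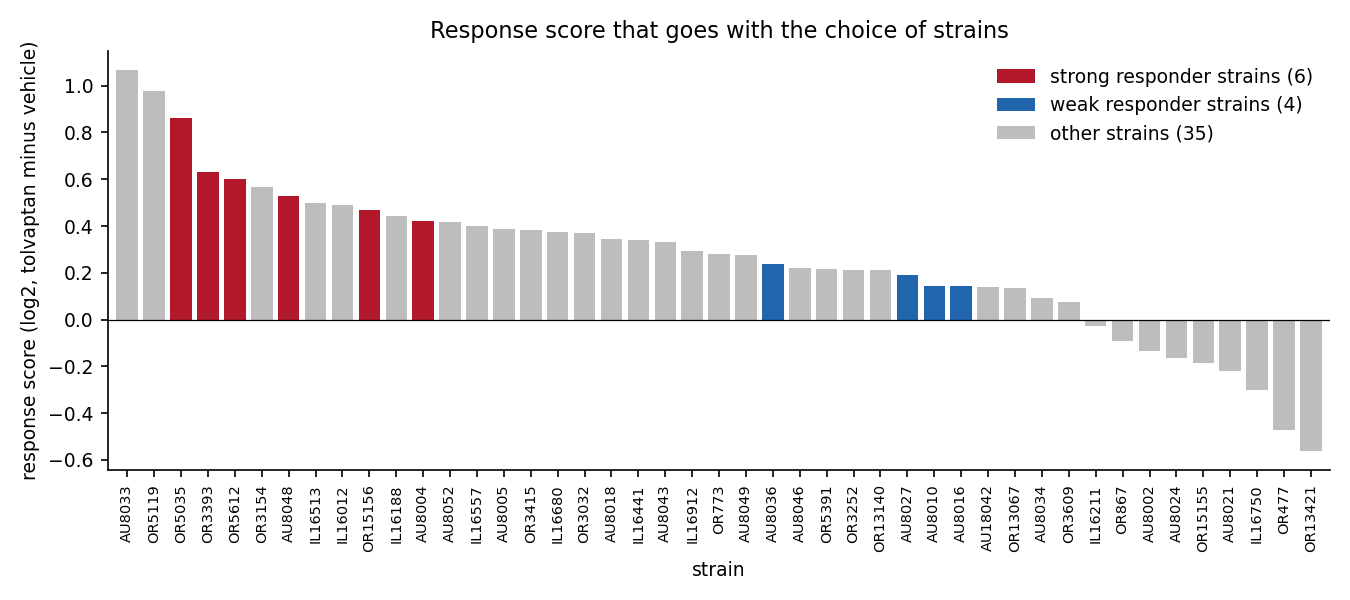
Response score of all 45 strains (vertical axis, log2, tolvaptan minus vehicle; 1 bar per strain, in falling order), with the 6 strong strains in red, the 4 weak strains in blue and the other 35 in grey. The strong strains lie between 0.42 and 0.86 and the weak strains between 0.14 and 0.24, with unselected strains above, between and below them.

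Array medians are made alike by the quantile normalization and were 2.86 to 2.93 over the 40 arrays; upper quartiles ran from 4.90 to 5.33 in strong and from 4.81 to 5.36 in weak strains. Each array correlated best with its own strain (0.87 to 0.97 in strong, 0.82 to 0.97 in weak strains), so none stood apart from its label; 34 arrays elsewhere in the series did. Each strain had 1 vehicle array on the first scan date and 3 on a later one. The names of all 4 weak strains begin with AU, against 2 of the 6 strong strains, so the name prefix and the class are partly confounded. Across 14125 genes the median within-strain SD was 0.27 and the median SD between strains of 1 class was 0.20. The median half-width of the 95% interval of a strong-minus-weak difference was 0.29, for 1 gene at a time and without adjustment. Differences below about that size were not detectable for a typical gene with these numbers. Passing the adjusted test over 14125 genes took larger differences than that.

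Pairs of strains from 1 class were about as far apart as pairs from both classes. The root mean square difference between 2 strains was 0.44 to 0.55 over the 15 pairs of strong strains, 0.46 to 0.49 over the 6 pairs of weak strains and 0.42 to 0.56 over the 24 mixed pairs, with medians of 0.49, 0.48 and 0.49. The first principal component, 21.2% of the variance, placed AU8048, OR15156, OR5612 and OR5035 at 24.6, 22.7, 17.2 and 17.0. The weak strains ran from -20.0 to 3.13; the strong strain AU8004 (-10.3) lay within that range and OR3393 (-22.2) just beyond its lower end. Strain itself was a large source of variation: 6343 of 14125 genes (44.9%) differed among the 10 strains in a limma F test over the 40 arrays at an adjusted p under 0.05.

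Against that background 1 gene differed between the classes. Rfx4, a winged-helix transcription factor best known from brain and testis, was the only one of 14125 genes (0.00708%) past an adjusted p of 0.05 in limma on the 10 strain means with Benjamini-Hochberg adjustment. At an unadjusted p under 0.05 there were 867 genes (6.14%), 529 of them higher and 338 lower in strong strains, and the second lowest adjusted p was 0.65. The signal in strong strains exceeded that in all weak strains for 97 genes (0.687%) and was below that in all weak strains for 36 genes (0.255%). Such a separation in 1 given direction is 1 of the 210 ways to split the 10 strains into 6 and 4, or 0.0048 of them. That share lies between the 2 shares found. Being free of overlap is thus no call, and the genes without overlap described below are given for their size. In all, 55.1% of genes had the higher mean in strong strains, with a median difference of 0.02 and a median size of 0.11. A difference of at least 1.5-fold was seen in 169 genes with higher and 167 with lower signal in strong strains.

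Rfx4 signal was 5.40 in OR5035, 5.25 in AU8048, 5.23 in OR3393, 5.21 in OR5612, 4.96 in AU8004 and 4.85 in OR15156. In the weak strains it was 4.12 in AU8027, 4.04 in AU8036, 3.84 in AU8010 and 3.53 in AU8016. All 6 strong strains were above all 4 weak strains. Among single animals the classes overlapped: the lowest strong animal, in OR15156, read 4.08 and the highest weak animal, in AU8036, read 4.69. The class means were 5.15 ± 0.20 (SD, n = 6) and 3.88 ± 0.26 (SD, n = 4), a difference of 1.26 ± 0.14 (SE) with an adjusted p of 0.041 in limma. Rfx4 was higher by 1.33 in the animals of the first scan date and by 1.24 in those of later dates. In tolvaptan animals of the same strains the Rfx4 means were 5.15 and 3.94, again with no overlap of strain means. The other 35 strains ranged from 3.26 to 5.91 with a median of 4.52, and 10 of them reached the lowest strong strain. A second Rfx4 probe set, dim at a mean of 2.72, differed by 0.10 in the same direction. The call was lost on leaving out any 1 of 9 of the 10 strains (adjusted p in limma of 0.08 to 0.19) and kept only without OR15156, while the Rfx4 difference itself stayed between 1.15 and 1.34.

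**Figure D2:**
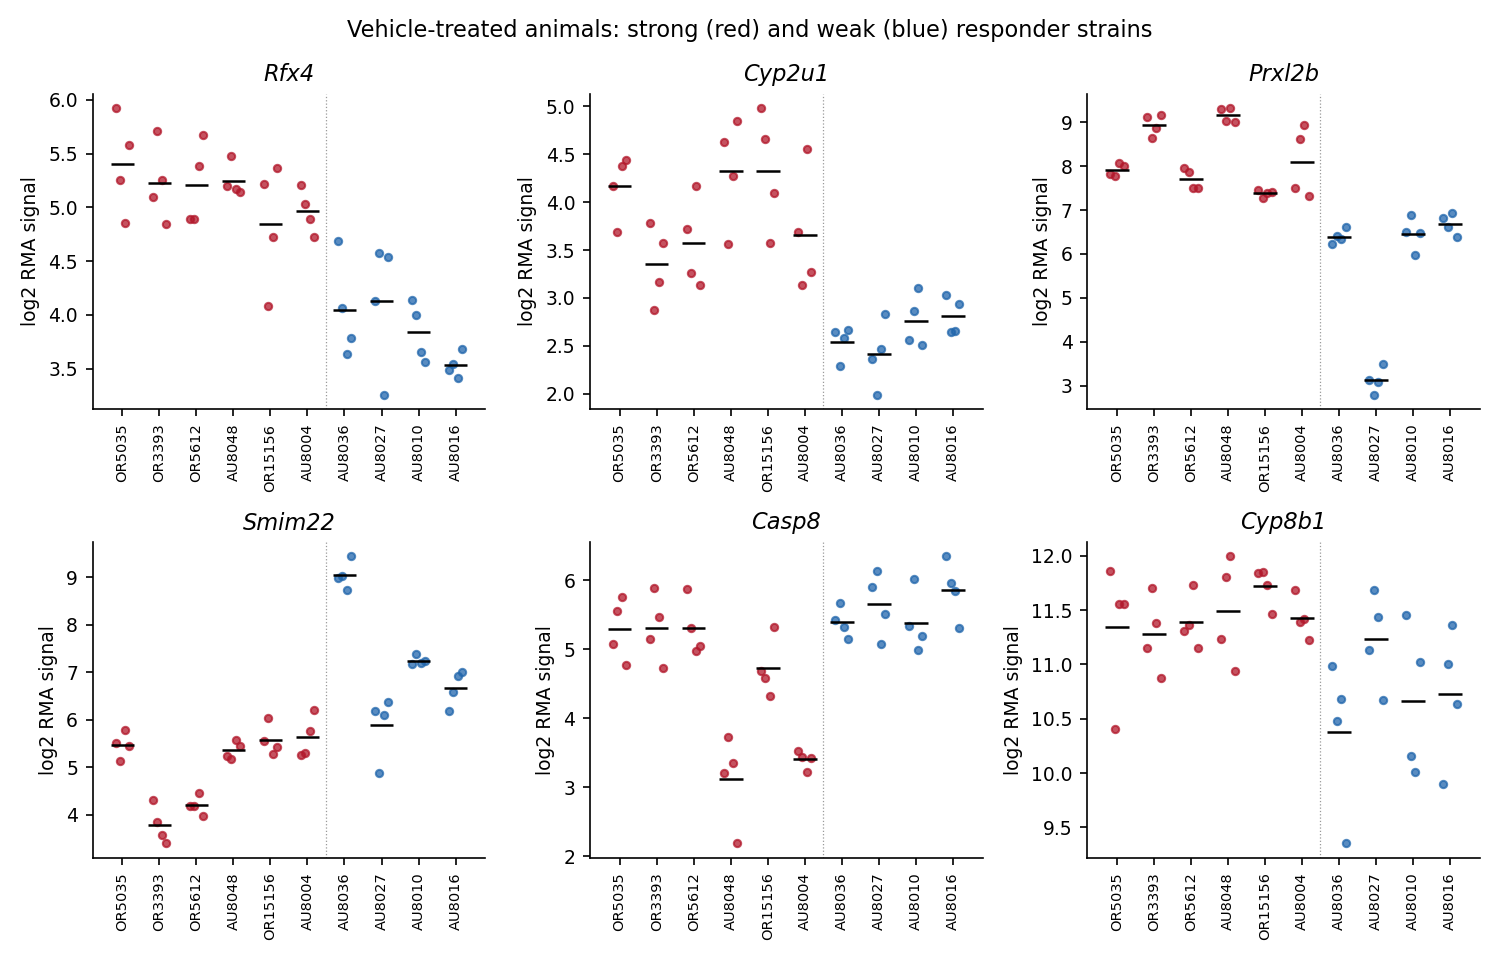
Log2 RMA signal (vertical axis) in each vehicle animal of the 10 strains (horizontal axis; strong strains in red, weak in blue, black bars for strain means of 4 animals) for 6 genes whose strain means do not overlap between the classes. Rfx4 strain means run from 4.85 to 5.40 against 3.53 to 4.12; Prxl2b and Smim22 vary widely among strains, and Casp8 is low in 2 strong strains only.

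None of the other genes named below passed the adjusted test in limma (adjusted p between 0.65 and 0.99 for each), and they are given as values. Pairs of values below are class means over 6 strong and 4 weak strains, in that order, and the SE of the difference had a median of 0.20 over 119 of the named genes, with a range of 0.08 to 1.76. The first of them are the genes with the largest differences among those whose strain means did not overlap, beginning with those with higher signal in strong strains. Cyp2u1, a P450 that hydroxylates long-chain fatty acids, averaged 3.90 in strong and 2.63 in weak strains, a difference of 1.27 ± 0.21 (SE). Cyp2u1 strain means were 4.33 in AU8048 and OR15156, 4.17 in OR5035, 3.66 in AU8004, 3.57 in OR5612 and 3.35 in OR3393, against 2.81, 2.76, 2.54 and 2.42 in AU8016, AU8010, AU8036 and AU8027. The Cyp2u1 signal of the weak strains was below the typical array median of 2.89. Hsd17b6, which interconverts androgens and retinoids, averaged 10.56 and 9.41, with strain means of 10.00 to 11.10 against 9.02 to 9.59. A second, dim Hsd17b6 probe set showed no such difference (-0.002), and in tolvaptan animals Hsd17b6 differed by 0.23. Cyp8b1, the sterol 12-alpha-hydroxylase that sets the share of cholic acid in bile, averaged 11.44 and 10.75, a difference of 0.69 ± 0.15 (SE). Cyp8b1 strain means were close together in strong strains (11.28 to 11.72) and spread from 10.38 in AU8036 to 11.23 in AU8027 in weak strains.

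Among the genes without overlap and with higher signal in strong strains, Prxl2b had the largest difference. Prxl2b, a peroxiredoxin-like prostaglandin F synthase, averaged 8.20 in strong and 5.67 in weak strains, a difference of 2.53 ± 0.66 (SE). Prxl2b strain means were 9.16 in AU8048, 8.94 in OR3393, 8.09 in AU8004, 7.92 in OR5035, 7.70 in OR5612 and 7.38 in OR15156, against 6.68 in AU8016, 6.46 in AU8010, 6.39 in AU8036 and 3.13 in AU8027. AU8027 stood far below the other weak strains, and the Prxl2b difference was 1.69 without it. In tolvaptan animals Prxl2b averaged 8.23 and 5.77, without overlap. Gm2a, the GM2 ganglioside activator of the lysosome, averaged 10.37 and 9.65, and both other Gm2a probe sets differed in the same direction by 0.21 and 0.94. Pgghg, a glucosidase for hydroxylysine-linked sugars, had means of 8.31 in OR5035 and 8.26 in AU8048 while the other strong strains lay between 6.94 and 7.02, just above the highest weak strain at 6.92. Chid1, a chitinase-domain protein, averaged 7.22 and 6.398, with a second probe set differing by 0.53.

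Igfbp3, the main carrier of insulin-like growth factors in serum, averaged 7.07 in strong and 5.98 in weak strains, with strain means of 6.68 to 7.79 against 5.70 to 6.47; in tolvaptan animals Igfbp3 averaged 6.53 and 5.99. Vsig10, an immunoglobulin-domain membrane protein, averaged 3.49 and 2.53. Cd1d2, a lipid-antigen-presenting molecule, averaged 3.16 and 2.38, with OR15156 at 4.58 and all other strong strains at 2.59 to 3.22. The weak class means of Vsig10 and Cd1d2 were below the typical array median of 2.89. Enc1, a kelch-domain actin-binding protein, averaged 6.81 and 6.17, and its 2 other probe sets differed by -0.02 and 0.43.

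Among genes with lower signal in strong strains, Smim22, which encodes a small membrane protein, averaged 5.002 in strong and 7.21 in weak strains, a difference of -2.21 ± 0.59 (SE). Smim22 strain means were 3.78 in OR3393, 4.20 in OR5612, 5.36 in AU8048, 5.47 in OR5035, 5.57 in OR15156 and 5.63 in AU8004, against 5.88 in AU8027, 6.68 in AU8016, 7.25 in AU8010 and 9.05 in AU8036. The nearest strains of the classes were AU8004 and AU8027, and single Smim22 animals of these strains overlapped. Prkcz, the atypical protein kinase C zeta, averaged 5.70 and 6.52, with strain means of 5.27 to 6.001 against 6.28 to 6.86. Prkcz was also lower without overlap in tolvaptan animals (5.69 and 6.71), and its second probe set differed by -0.75. Gfra1, a GDNF co-receptor, averaged 9.31 and 10.09, and its 2 other probe sets differed by -1.03 and -0.62.

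Casp8, the initiator caspase of death-receptor signalling, averaged 4.53 in strong and 5.57 in weak strains. That difference came from AU8048 (3.12) and AU8004 (3.40), while OR15156 read 4.73 and OR5035, OR5612 and OR3393 read 5.29 to 5.31, just under the weak strains at 5.38 to 5.86. Rmnd1, a mitochondrial translation factor, had the same shape: AU8004 read 3.78, the other strong strains 5.997 to 6.38, and the weak strains 6.38 to 6.65. Casp8 and Rmnd1, like Prxl2b and Smim22, had no second probe set to compare. Whether strain sequence differences under their probes alter the signal was not tested. Steap4, a metalloreductase of the acute-phase response, averaged 7.17 and 8.01, with strain means of 6.31 to 7.72 against 7.73 to 8.62.

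The remaining lower genes differed by less. Chn2, a GTPase-activating protein for Rac, averaged 6.44 and 7.07; Tcea3, a transcription elongation factor, 7.27 and 7.84; Nfyb, a subunit of the CCAAT-box factor NF-Y, 6.22 and 6.69; and Rars2, the mitochondrial arginyl-tRNA synthetase, 5.94 and 6.404. Second probe sets of Chn2 (mean 6.09) and Nfyb (mean 5.97) differed by only -0.12 and -0.11. Ttc9c, a tetratricopeptide-repeat protein, averaged 5.40 and 5.86, and Adss, an enzyme of AMP synthesis, averaged 6.58 and 7.02. Other Ttc9c probe sets, at means of 2.61 and 3.57, differed by -0.07 and -0.05. In Ttc9c the 4 weak strains lay close together (5.83 to 5.88) while the strong strains ran from 4.82 to 5.76.

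**Figure D3:**
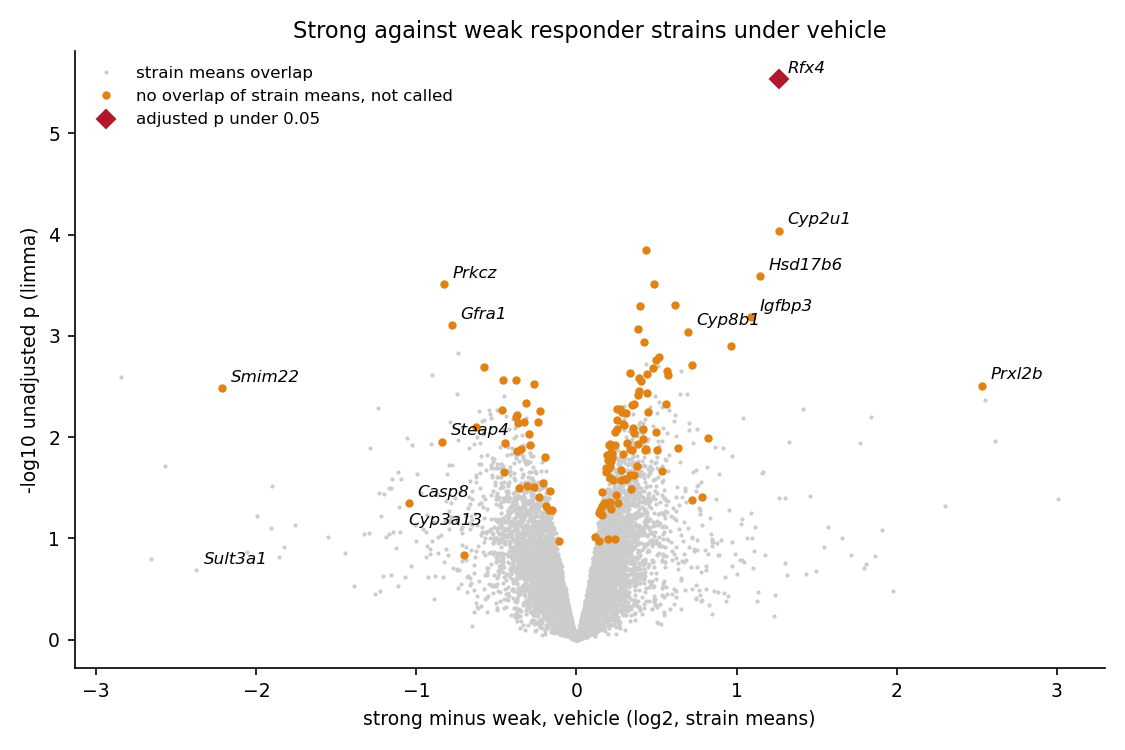
Strong-minus-weak difference of strain means under vehicle (horizontal axis, log2) against -log10 of the unadjusted limma p (vertical axis) for 14125 genes, with genes whose strain means do not overlap in orange and the 1 gene past an adjusted p of 0.05, Rfx4, as a red diamond. The 133 genes without overlap include small differences, and genes with large differences such as Sult3a1 and Cyp3a13 lie low because strains of 1 class disagree.

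Of the 133 genes without overlap, 20 differed by at least 1.5-fold and 61 (45.9%) also differed among the 10 strains in the F test, close to the 44.9% of all genes. In tolvaptan animals, which are different animals of the same strains and entered the choice of strains, 124 of the 133 (93.2%) had the same sign, against 67.4% of all genes tested. No overlap in tolvaptan animals, in the same direction, was seen for 7 of the 133 (5.26%). Over all genes tested, 0.538% had all strong strains above and 0.559% all strong strains below the weak strains in tolvaptan animals. The median size of the 133 differences was 0.18 in tolvaptan animals against 0.33 under vehicle. The 133 were picked for separation of these same strains, and the median size over all genes under vehicle was 0.11. Their higher shares in tolvaptan animals are thus no separate test of the classes.

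Cholesterol synthesis was the pathway with the largest median difference of the 44 gene lists examined. This pathway builds cholesterol from acetyl-CoA through mevalonate, squalene and lanosterol, and its genes are switched on together by the transcription factor SREBP-2, which Srebf2 encodes. Of 23 listed genes, 15 were tested, and 14 of them had the higher mean in strong strains, with a median difference of 0.50 against 0.02 for all genes. At an unadjusted p under 0.05 in limma there were 6 of the 15, against 6.14% of all genes, and none passed the adjusted test. Genes that are switched on together are not independent, so these counts are a description only. The other 8 listed genes were not analysed here.

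In the mevalonate branch, Mvk (mevalonate kinase) averaged 5.95 in strong and 5.45 in weak strains, with strain means of 5.76 to 6.24 against 5.19 to 5.62 and no overlap. Mvd, the decarboxylase of the same branch, averaged 4.05 and 3.31. After squalene, Sqle (squalene epoxidase, a rate-limiting step) averaged 6.26 and 5.38, Lss (lanosterol synthase) 4.35 and 3.68, and Cyp51 (lanosterol demethylase) 7.11 and 6.02. Cyp51 strain means were 7.66 in OR5035, 7.37 in OR5612, 7.22 in OR3393, 7.15 in AU8048, 6.86 in OR15156 and 6.39 in AU8004, against 7.18 in AU8027, 7.17 in AU8010, 5.09 in AU8036 and 4.63 in AU8016. Sqle followed the same strains, with 4.11 in AU8016 and 4.70 in AU8036 but 5.83 in AU8027 and 6.88 in AU8010. The weak strains were thus split for Cyp51 and Sqle, with AU8010 and AU8027 inside the range of the strong strains.

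In the later sterol steps, Tm7sf2 (a sterol C14-reductase) averaged 10.46 and 9.98, with strain means of 10.34 to 10.85 against 9.80 to 10.16 and no overlap. Nsdhl averaged 7.71 and 7.09, Msmo1 7.70 and 7.07, and Dhcr7 7.91 and 7.36, all with overlapping strains. Srebf2 averaged 6.20 and 5.87, and Insig1, which holds SREBP in the endoplasmic reticulum and is itself one of its targets, 6.48 and 6.21. Fdft1 (squalene synthase) was the exception, at 8.73 and 8.82.

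Summed up by strain as the median of the 15 genes from their 10-strain means, cholesterol synthesis stood at 0.39 in AU8048, 0.36 in OR5035, 0.32 in OR3393, 0.24 in OR5612, -0.001 in AU8004 and -0.18 in OR15156. The weak strains stood at -0.006 in AU8010 and AU8027 and at -0.50 in AU8016 and AU8036. OR15156 lay within the range of the weak strains, and AU8004 lay just above its upper end. In tolvaptan animals the median difference over the 15 genes was 0.63. OR5035 at 1.06 and AU8004 at 1.26 were highest, and AU8016 (-0.77) and AU8036 (-0.80) lowest. The classes overlapped there. The weak strain AU8010 stood at 0.24, above OR3393 (0.09), OR5612 (-0.04), AU8048 (-0.22) and OR15156 (-0.39), and the weak strain AU8027 at -0.29. None of the 15 was among the 70 genes (0.496%) that changed with tolvaptan on average over 45 strains. In the animals of the first scan date alone the vehicle median was 0.22, with 13 of 15 genes higher; with only the 6 AU strains it was 0.51. Leaving out single strains gave 0.37 to 0.65.

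**Figure D4:**
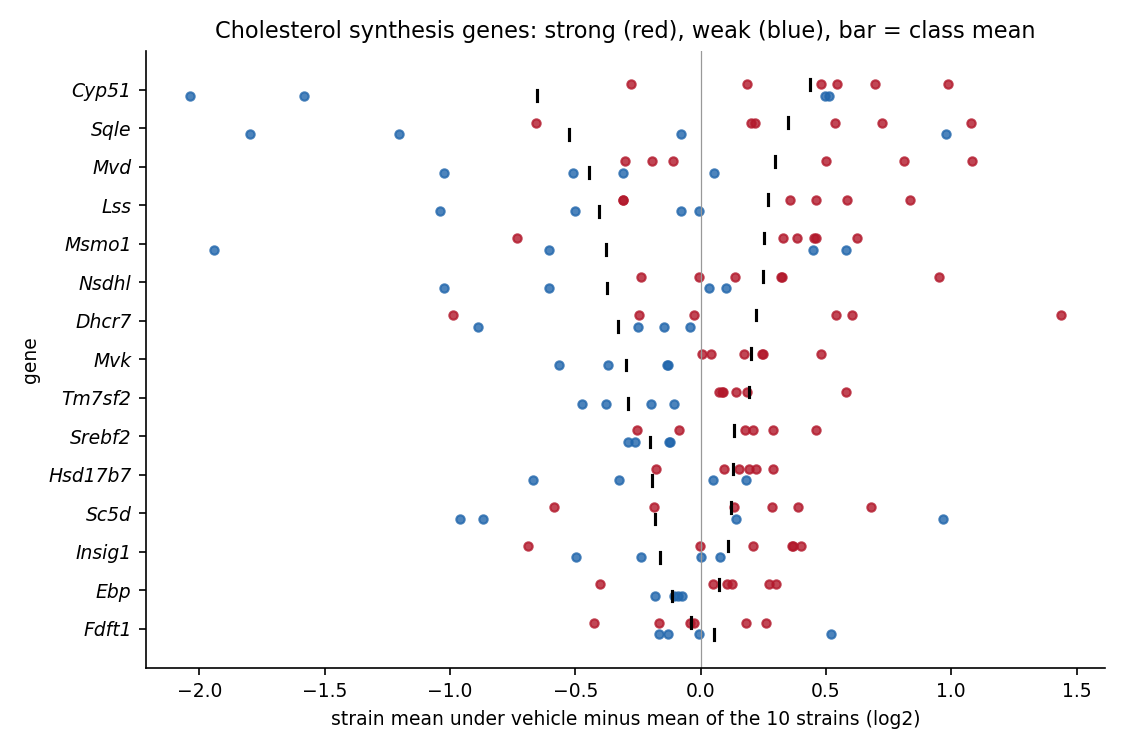
Vehicle strain means of the 15 cholesterol synthesis genes minus the mean of the 10 strains (horizontal axis, log2; 1 dot per strain, strong in red above weak in blue, black bars for class means). The class mean is higher in strong strains for 14 genes, dots of the classes are separate for Mvk and Tm7sf2 only, and for Cyp51 and Sqle 2 weak strains lie far below the others.

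Genes of the drug's receptors and of its clearance did not pass the test in either direction. Avpr1a, the vasopressin receptor of hepatocytes, averaged 5.90 in strong and 6.42 in weak strains, a difference of -0.52 (95% interval -1.40 to 0.37; exact permutation p = 0.32 over the 10 strains). Within the strong strains Avpr1a ran from 4.33 in OR5612 and 5.54 in AU8004 to 6.63 in OR3393, while the weak strains lay between 5.94 and 6.71; a second Avpr1a probe set differed by 0.06 in the other direction. Avpr2, the target of the drug, was too dim in liver to test (2.27 and 2.29, under the typical array median of 2.89). Cyp3a11 averaged 12.45 and 12.81, and the gap came from OR3393 at 10.82, the other strong strains lying at 12.54 to 13.06. Cyp3a13 averaged 8.44 and 9.54 (difference -1.10, 95% interval -2.39 to 0.18), with OR5035 at 6.35 and AU8048 at 7.38 below all others. Of 4 Cyp3a genes tested, 1 was higher and 3 were lower in strong strains.

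Among the nuclear receptors that induce these enzymes, Nr1i2 (PXR) averaged 8.30 and 8.29, with a 95% interval of the difference from -0.31 to 0.32. Nr1i3 (CAR) averaged 8.75 and 9.15, and ran from 7.47 in OR5612 to 9.93 in AU8048. Cyp2b10, the classical CAR target, ran from 2.96 in OR5035 to 11.46 in AU8048 within the strong strains and from 3.67 in AU8016 to 8.34 in AU8036 within the weak strains, so that its mean difference of -0.21 had an interval of -3.65 to 3.23. Strains of 1 class thus differed far more in Cyp2b10 than the classes did. Among the other phase 1 P450 genes, 9 of 23 were higher and 14 lower in strong strains, with Cyp2j5 at 9.70 and 10.27 and Cyp2c29 at 11.40 and 11.97.

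Of 21 canalicular and basolateral transporters 12 were lower in strong strains, with a median of -0.08 that ran from -0.14 to 0.03 with single strains left out. Abcc2 (MRP2), which exports conjugated bilirubin and drugs, averaged 9.37 and 10.00, a difference of -0.63 (95% interval -1.16 to -0.10; exact permutation p = 0.043 over the 10 strains, adjusted p = 0.75 in limma over all genes). Abcc2 strain means were 9.82 in AU8004, 9.74 in OR5612, 9.52 in OR3393, 9.44 in AU8048, 9.18 in OR5035 and 8.54 in OR15156, against 10.16, 10.15, 10.13 and 9.57 in AU8027, AU8016, AU8036 and AU8010. The classes overlapped in Abcc2 through AU8010 alone, and in tolvaptan animals the Abcc2 difference was -0.53. Abcg5, a subunit of the sterol exporter, averaged 9.36 and 9.71, and Slc22a18 9.79 and 9.54. Abcb11, the bile salt export pump, averaged 8.92 and 9.14, with an interval of -0.71 to 0.27. The uptake carriers Slc10a1 (11.47 and 11.45) and Slco1b2 (9.08 and 9.53) and the dim Abcb1a (2.75 and 2.55) did not pass the test.

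Conjugation and antioxidant genes were mixed. Of the NRF2 and glutathione list 11 of 20 genes were higher and 9 lower. Srxn1 (sulfiredoxin) averaged 6.60 and 6.15, Txn1 (thioredoxin) 9.62 and 9.83, and Gclc, the catalytic subunit of glutathione synthesis, 10.13 and 10.37. Nqo1 averaged 4.97 and 4.63 and ran from 3.63 in OR5612 to 6.97 in AU8004, both strong strains. Glutathione S-transferases split 8 and 8, with Gstk1 at 9.97 and 10.47, Gstt2 at 10.23 and 9.77 and Mgst3 at 7.52 and 6.77. Of 9 UDP-glycosyltransferases 7 were lower in strong strains, among them Ugt2b34 (9.23 and 9.60), Ugt2b35 (10.08 and 10.38) and Ugt2a3 (8.84 and 9.09). In that list 1 gene was at least 1.5-fold higher in strong strains and 0 were as much lower, and the mean difference was 0.002. Sulfotransferases split 5 and 5, with Papss2, which makes the sulfate donor, at 8.19 and 8.79, Sult1a1 at 9.40 and 10.70, and Sult5a1 at 8.64 and 7.79. Other Papss2 probe sets, at means of 6.17 and 5.61, differed by 0.02 and -0.40.

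Bile acid synthesis had 9 of 14 genes higher in strong strains, with a median of 0.08. Besides Cyp8b1, Cyp7b1, of the alternative pathway, averaged 11.28 and 10.79, Acox2, of side-chain shortening, 10.66 and 10.39, and Cyp7a1, the rate-limiting enzyme, 6.94 and 6.13, each with overlapping strains. Fatty acid synthesis (9 of 17 higher) and PPAR-alpha targets (11 of 22 higher) had medians within 0.01 of 0, with Acadl at 10.74 and 11.18, Plin2 at 11.96 and 11.70 and Creb3l3 at 10.93 and 10.73. In glucose metabolism, the glycogen-targeting subunits Ppp1r3b (8.32 and 8.67) and Ppp1r3g (4.69 and 5.28) and glycogen synthase Gys2 (8.23 and 8.55) had lower means in strong strains, in a list of 7 higher and 8 lower. In amino acid catabolism, Aldh4a1, of proline degradation, averaged 7.41 and 8.31, Gldc, of glycine cleavage, 9.81 and 9.25, and Nags, which makes the urea cycle's activator, 9.07 and 8.84.

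Stress genes did not share a direction. Heat shock chaperones were lower in strong strains for 10 of 12 genes, with a median of -0.20 under vehicle and -0.06 in tolvaptan animals; Hspa4l averaged 3.36 and 4.11, Dnaja1 9.44 and 9.90, and Hspa4 7.39 and 7.65. A second Dnaja1 probe set, at a mean of 8.41, differed by only -0.04. The strain medians of the heat shock list overlapped, from -0.37 to 0.34 in strong and from -0.08 to 0.37 in weak strains. Endoplasmic reticulum chaperones and stress genes split 10 higher and 12 lower, with Dnajc3, a luminal co-chaperone, at 9.42 and 9.92, Atf6, a stress sensor, at 6.24 and 6.57, and Hyou1, a chaperone of the same compartment, at 7.34 and 6.71. Targets of ATF4 split 12 and 8, and Trib3, a pseudokinase induced by it, averaged 6.73 and 6.19 with no overlap. Sesn2 averaged 6.25 and 5.92 and Shmt2 9.75 and 9.49. In the p53 and cell death list, which holds Casp8, 8 of 19 were higher, with Phlda3 at 3.39 and 3.18 and Tnfrsf10b at 3.51 and 3.19. Of the proteasome 16 of 25 were higher with a median of 0.03, led by Psmb5 (7.42 and 6.98), Psmd11 (9.82 and 9.64) and Psmd4 (10.46 and 10.29).

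Inflammatory and immune lists did not share a direction. Acute-phase genes were lower in strong strains for 18 of 24, with a median of -0.17 under vehicle and 0.04 in tolvaptan animals, and besides Steap4 they included Crp (10.10 and 10.54) and Socs3 (3.63 and 4.05). The strain medians of the acute-phase list were highest in the weak strains AU8016 (0.33) and AU8036 (0.22), while AU8010 (0.0005) and AU8027 (-0.08) lay within the strong strains' range of -0.25 to 0.08. Complement and coagulation genes split 13 and 12, with C8b at 10.61 and 10.04, Masp2 at 9.33 and 9.02 and F5 at 9.77 and 10.17. Of 17 MHC genes 16 were higher in strong strains with a median of 0.13, against -0.09 in tolvaptan animals; H2-Q10 averaged 11.69 and 11.31, H2-K1 11.67 and 11.27 and H2-T23 3.54 and 2.87.

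Markers of other liver cells were measured beside these groups, and in bulk tissue fewer cells of a type and less RNA per cell cannot be told apart. Hepatocyte identity genes had a median difference of 0.02 (8 of 15 higher), with strain medians between -0.02 and 0.06 in every strain, and Apob averaged 7.09 and 7.47, Foxa2 8.84 and 9.08 and Serpina1a 12.95 and 12.41. Neutrophil markers were lower in strong strains for 8 of 9, with a median of -0.23. S100a9 averaged 3.68 and 4.84, S100a8 3.32 and 4.07 and the dim Ltf 2.71 and 3.08. The neutrophil median by strain ran from -0.27 to 0.06 in strong strains and was 0.72 in AU8036, 0.19 in AU8016, 0.03 in AU8010 and -0.26 in AU8027. The 2 weak strains with the highest acute-phase medians thus also had the highest neutrophil medians; the part of these cells in the acute-phase values was not tested.

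Other marker lists had medians between -0.06 and 0.08. In the Kupffer cell list (7 of 17 higher) Folr2 averaged 4.59 and 5.75, C1qc 7.56 and 7.18 and Ctss 7.54 and 7.81. In sinusoidal endothelium (9 of 20 higher) Kdr averaged 6.74 and 7.03, Wnt2 5.46 and 4.93 and the dim Flt4 2.71 and 2.34. In the stellate cell list (8 of 18 higher) Reln averaged 7.30 and 7.91, Lum 4.40 and 5.20 and Dcn 8.77 and 9.09. Lymphocyte markers, all near or below the typical array median, split 8 and 8, with Cd3d at 2.31 and 2.53, Klrd1 at 2.18 and 2.50 and Jchain at 2.61 and 3.20.

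Hormonal and circadian lists were also overlapping. Clock genes were lower for 12 of 17 with a median of -0.14, with Nr1d2 (REV-ERB beta) at 7.94 and 8.59, Wee1 at 5.76 and 6.20 and Arntl (BMAL1), whose rhythm runs opposite to these, at 5.53 and 4.87. Clock times of collection are not given in the sources used here. In the growth hormone and IGF list, besides Igfbp3, Onecut1 averaged 5.43 and 6.03 and Igfbp1 11.28 and 10.51. Male-biased liver genes had a median of 0.10 (8 of 12 higher) and female-biased ones of -0.07 (5 of 11 higher).

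**Figure D5:**
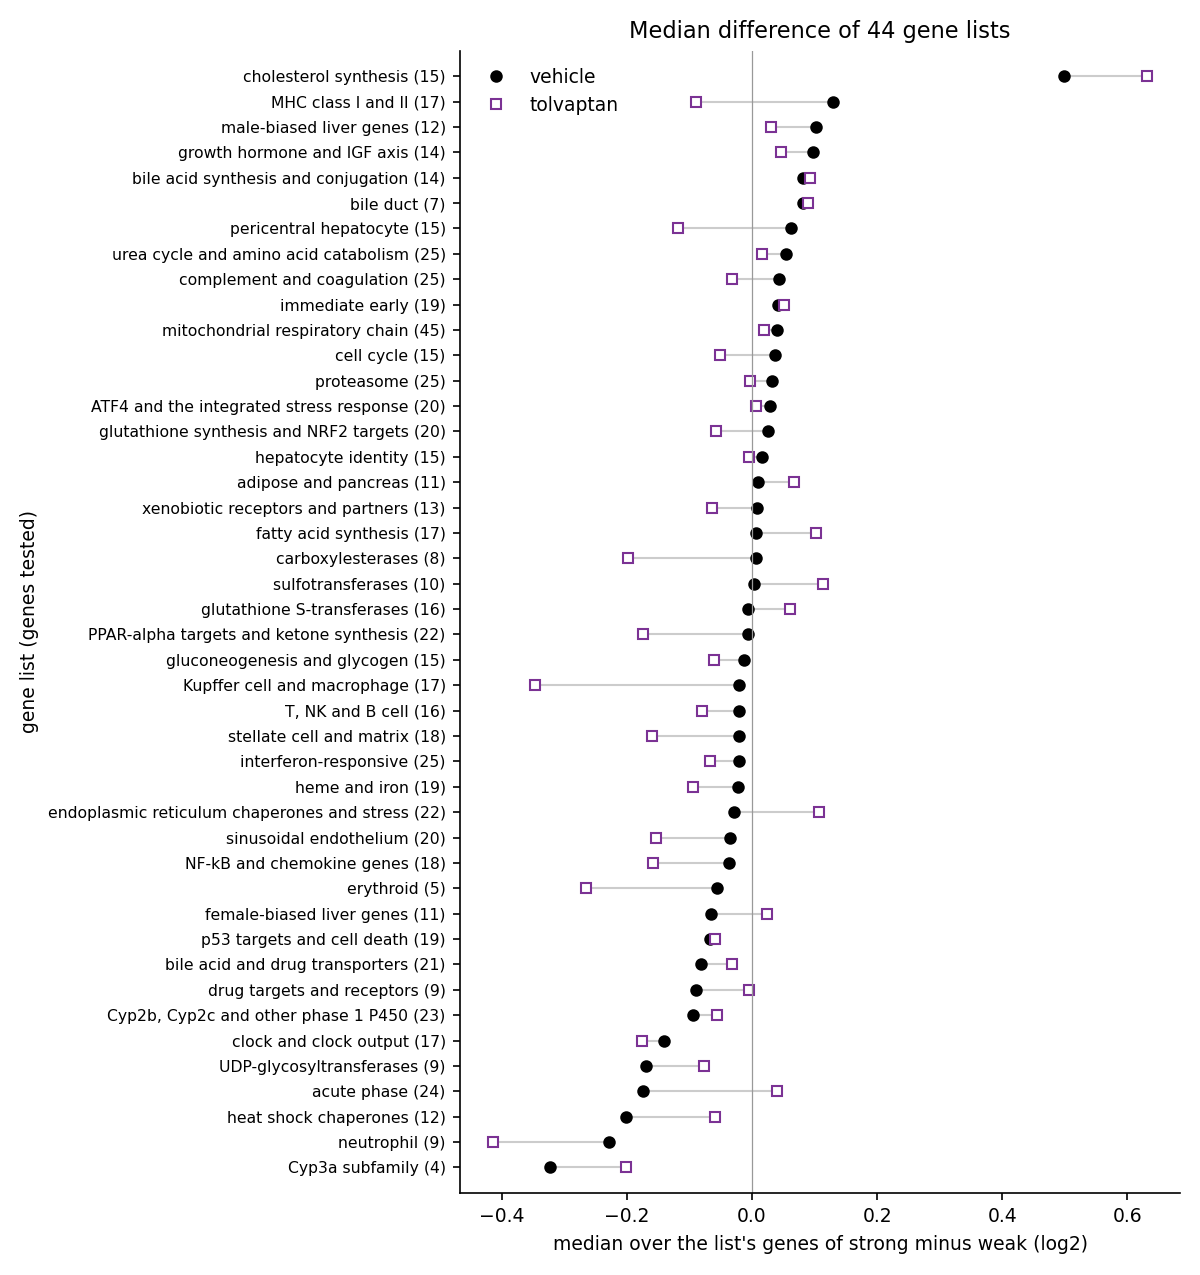
Median strong-minus-weak difference (horizontal axis, log2) of 44 gene lists (vertical axis, number of tested genes in brackets) under vehicle (black circles) and in tolvaptan animals of the same strains (open purple squares). Cholesterol synthesis stands at 0.50 and 0.63, and all other vehicle medians lie between -0.32 (Cyp3a, 4 genes) and 0.13 (MHC).

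Vehicle levels of the genes that tolvaptan moved overlapped between the 2 classes, as they did for nearly all genes. Because the strains were selected on the change of such genes from these same vehicle arrays, their levels are a description without a test. Of 46 genes that rose with tolvaptan on average over 45 strains, 19 had higher and 27 lower vehicle means in strong strains, with a median of -0.03. Of 24 that fell, 15 were higher and 9 lower, with a median of 0.08, and none of the 70 was free of overlap. Over all genes tested, 0.687% had all strong strains above and 0.255% all strong strains below the weak strains. With shares that small, finding none among 70 genes does not set these genes apart. Derl3, of endoplasmic-reticulum-associated degradation, had the largest averaged change, at 6.06 and 5.75 under vehicle and 8.16 and 6.44 under tolvaptan. Its vehicle strain means were 7.85 in OR5035 and 5.28 to 6.05 in the other strong strains, against 5.51 to 5.99 in weak strains.

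Saa3, an inducible acute-phase protein, stood at 7.32 and 7.78 under vehicle and at 9.09 and 8.499 under tolvaptan. Alas1, which catalyses the first step of heme synthesis, stood at 10.57 and 11.20 under vehicle and at 11.17 and 11.22 under tolvaptan, with the lowest vehicle strain mean, 9.28, in OR3393. Slpi, a protease inhibitor, read 4.67 and 4.68, Wfdc12, of the same family, 3.92 and 4.06, Psat1, of serine synthesis, 2.31 and 2.42, N4bp2l1 9.01 and 9.19 and Gnat2 2.94 and 2.86 under vehicle. For each of these 8 genes the vehicle strain means of the classes overlapped.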

How the data were processed

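RNA from 1 piece of median liver lobe per animal was hybridised to HT_MG-430 PM arrays, 1 array per animal. The deposited values are log2 signals made by the authors with RMA in Affymetrix Expression Console, per the submitters' processing notes; versions are not given in the sources used here. Of 42597 probe sets, 27691 carry 1 gene symbol in the platform annotation, 493 several and 14376 none; 27494 of them matched a current RefSeq name. Each of 16670 genes was represented by its brightest single-symbol probe set, and 14125 genes above the array's median signal in at least 4 arrays were tested. Probe sets of near-identical families (Cyp3a, Ugt, H2) can read more than 1 member. The number of strains limits the precision; arrays give no read depth.

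The 4 vehicle arrays of a strain were averaged, and the 10 strain means were compared between classes with limma 3.58.1 (R 4.3.3), eBayes and Benjamini-Hochberg adjustment over all 14125 genes, threshold 0.05. Single values were also tested with a two-sided exact permutation test over the 210 splits of the 10 strains. Strain means were called free of overlap where every strong strain lay on 1 side of every weak strain. An array was judged off its strain where its correlation with its strain over 500 probe sets was under 0.5. The fit was tested on simulated data. Lists are described by counts and medians, with no set test.

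The strain classes, gene lists and tests were chosen with earlier results of these data known. Named genes are, first, called genes with the same sign in the first and later scans. Each direction was filled to 12 with genes without overlap, by size and without a condition on the scans. Lists that hold a member with an unadjusted p under 0.05 gave up to 3 members with the lowest unadjusted p. Fixed drug-handling genes (Por was not analysed here) and the 8 genes with the largest averaged tolvaptan change were also named. The other cholesterol synthesis genes, Cyp7a1 and Sult3a1 in the plot of differences were named after their values were seen. Alternatives covered each strain left out, scans, probe set summaries, filters and the estimate of the spread.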

Additional observations from a re-analysis of the deposited data

Results flagged for a closer look

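In 31 of 330 sets of strain values examined (2 classes for each of 120 genes, 44 lists and the response score), 1 strain stood apart from the others of its class by a gap test at the 95% level, which chance alone does in about 1 in 20 sets. Values are log2 strain means under vehicle, and for lists medians from the 10-strain mean.

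AU8016, a weak strain, stood apart in a liver enzyme and in a serum protein. Sult3a1, a female-biased sulfotransferase, read 12.10 in AU8016 and 2.05 to 2.57 in the other weak strains, with all 4 AU8016 animals between 12.03 and 12.17. Serpina1a, an alpha-1-antitrypsin gene, read 10.43 in AU8016 and 12.97 to 13.23 in the others. AU8016 also stood apart in Chid1 (6.10), Sult5a1 (8.85) and Socs3 (4.53).

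AU8027, another weak strain, stood apart in Prxl2b (3.13, others 6.39 to 6.68), Aldh4a1 (7.52), Ppp1r3b (8.19), Psmb5 (7.28), Psmd11 (9.82), the NRF2 and glutathione list (0.21) and the fatty acid synthesis list (0.30). AU8010 stood apart in Enc1 (5.89), Abcc2 (9.57), H2-T23 (2.38), the female-biased list (1.05, others -0.40 to -0.25), the growth hormone and IGF list (-0.16) and the NF-kB list (0.16).

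Among strong strains, OR5035 stood apart in Derl3 (7.85, others 5.28 to 6.05), in Sult3a1 (4.79, others 1.78 to 2.15; its 4 animals read 2.57 to 7.77) and in the Cyp3a list (-0.63, others 0.08 to 0.32). OR3393 stood apart in Cyp3a11 (10.82, others 12.54 to 13.06), F5 (10.73) and Aldh4a1 (6.88). AU8004 stood apart in Rmnd1 (3.78, others 5.997 to 6.38) and Cyp7b1 (10.51), AU8048 in Tm7sf2 (10.85), Abcg5 (8.97) and the erythroid list (-0.35), and OR15156 in Cd1d2 (4.58) and Igfbp1 (10.22).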

How the results depend on the processing

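The count of 1 called gene and of 133 genes without overlap depended on the strains and settings used. With 1 strain left out at a time, 0 to 1 genes were called and 171 to 474 had no overlap; the latter count grows with fewer strains by construction. No gene was called after removing scan effects, in the first or the later scans alone, with strain medians, without the filter on dim genes, with a mean above log2 5 or with the spread over 45 strains (0 each; 768, 848, 877, 900, 1025, 407 and 843 genes at an unadjusted p under 0.05 in limma). The means over probe sets called 2, Ndel1 and Rfx4, and single arrays with strain as a random block (1 shared correlation of 0.25 for all genes) called 49, including 33 higher. The 6 AU strains alone, an alternative chosen after seeing the data, called 2, Casp8 and Rps21, with 1865 genes free of overlap in 2 against 4 strains. The 8 strains that share scan 3 called Crym in place of Rfx4, with 803 free of overlap, and the filter at log2 5 left 64. Leaving out AU8010 also called Crym alone. The first scan and the later scans gave 172 and 119 genes without overlap, of which 12 and 52 were among the 133.

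Rfx4 kept its direction in all 22 alternatives that hold it, between 0.68 and 1.36. Its adjusted p in limma was 0.06 with scan effects removed, 0.81 in the first scan, 0.17 in later scans, 0.35 in the 8 strains of scan 3, 0.08 with strain medians, 0.05004 without the filter, 0.78 with the spread over 45 strains, 0.33 in AU strains, and 9.2e-05 with single arrays. Single arrays also called 12 other named genes, among them Prxl2b, Cyp2u1, Smim22 and Prkcz. That fit takes animals as units with 1 shared correlation for all genes. This can make p too small for genes that vary widely among strains, such as Prxl2b and Smim22. Its calls are therefore not on the footing of the fit on strain means. Differences of some genes that were not called changed sign. Of these, Nr1i2 (0.007) and Slc10a1 (0.02) were near 0 as reported. Sult5a1 (0.85 as reported), Nr1i3 (-0.40), Ltf (-0.37), Cyp3a11 (-0.36), Sesn2 (0.32), Cyp2b10 (-0.21), Abcb1a (0.20) and Psmd11 (0.18) were further from it. In the first scan the changed values were Nr1i2 (-0.10), Abcb1a (-0.079), Sesn2 (-0.021), Ltf (0.15) and Psmd11 (-0.0086). Later scans changed Slc10a1 (-0.011). The 8 strains of scan 3 changed Cyp3a11 (0.0026) and Slc10a1 (-0.047). Strain medians changed Nr1i2 (-0.0063) and Slc10a1 (-0.017), and means over probe sets Slc10a1 (-0.013). AU strains alone changed Cyp3a11 (0.16), Cyp2b10 (2.68), Nr1i3 (0.55) and Sult5a1 (-0.055). With single strains left out, Cyp2b10 ran from -1.24 to 0.46, Nqo1 from -0.058 to 0.61, Nr1i2 from -0.054 to 0.095, Serpina1a from -0.12 to 0.82, Slc10a1 from -0.042 to 0.11 and Sult3a1 from -3.29 to 0.058. As reported, Sult3a1 differed by -2.38, Serpina1a by 0.54 and Nqo1 by 0.34. Of the 44 list medians, 15 kept their sign with every strain left out in turn and 10 in all alternatives. Those 10 were cholesterol synthesis, MHC, acute phase, heat shock, neutrophil, clock, Cyp3a, drug targets and receptors, UDP-glycosyltransferases, and urea cycle and amino acid catabolism. The cholesterol synthesis median stayed between 0.22 and 0.65 in 20 alternatives. The alternative without arrays off their strain left out none here. No paired analysis was possible because animal numbers are unique to each animal.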
